A study of Capsella rubella with 6 samples.

Results

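Parental allele bias was measured in the endosperm of the cross Cr A x Cr B of *Capsella rubella*, a self-fertilising relative of *Arabidopsis*. Of 12641 genes with a listed polymorphic site, 7373 (58.3%) had at least 20 allelic reads in each of the 2 libraries of this cross. Results refer to these genes unless another number of genes is given. Replicate 1 alone reached 20 reads in 7705 genes and replicate 2 in 8095, while 823 genes had no allelic read in either. Cr A is the accession Cr48.21 and Cr B the accession Cr75.2. Both libraries of the cross came from dissected endosperm of 300 to 500 pooled seeds at 6 days after pollination, from flowers pollinated 2 days after emasculation. The other samples of the series were 2 endosperm libraries of the reverse cross Cr B x Cr A, prepared alike, and leaf DNA of each accession, which was not analysed here. No transgene, mutation or treatment was given in any group. The cross names were read as female x male, which the labels do not state. On that reading every maternal read in Cr A x Cr B carried the Cr A base and every paternal read the Cr B base, so within this cross a parental difference and an accession difference cannot be told apart. The maternal share itself rests on the authors' own maternal and paternal counts.

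Endosperm is the nourishing tissue of the seed. It forms when a sperm cell fuses with the central cell of the ovule, which brings 2 maternal genome copies against 1 paternal copy, so a gene transcribed equally from every copy has a maternal share of 66.7%. Imprinted genes depart from this dosage because one parental allele is silenced or less active. In *Arabidopsis*, maternally expressed genes are often tied to DNA demethylation in the central cell, and paternally expressed genes to Polycomb marking of the maternal allele. The authors' tables pair the gene intervals with no names, so a gene is called here by its scaffold, its first and last base and its strand. The genome build was not given in the sources used here. Without names, neither the tissue label nor the presence of seed coat or embryo RNA could be checked against marker genes. In pooled tissue, fewer cells of a type and less RNA per cell cannot be told apart.

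In Cr A x Cr B, replicate 1 gave 8122761 allelic reads and replicate 2 gave 11702341, and the median tested gene had 269 and 411 reads. The Cr B x Cr A libraries gave 9524883 and 11637156. The most covered gene took 3.09% of the tested genes' reads in replicate 1 and 0.748% in replicate 2 of Cr A x Cr B. Reads fell on 60158 polymorphic sites of the cross, of which 48880 lay in gene intervals and 37408 in listed exons. The labels do not say whether the 2 libraries were made from different plants. The spread that each p-value measures is that between pools of the same cross, and it may be technical. In fits without 1 Cr A x Cr B library, it is that between the Cr B x Cr A pools.

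Most genes were read from both parental alleles close to the dosage of the tissue. The median maternal share per gene was 69.4% in replicate 1 and 67.9% in replicate 2, a mean of 68.7% ± 1.10 (SD, n = 2), while that of Cr B x Cr A was 71.0% ± 1.86 (SD, n = 2). An exact two-sided permutation test of 2 libraries against 2 cannot give a p below 0.333, so the medians of the crosses were not tested against each other. The middle 50% of the genes lay between 62.8% and 75.9% in replicate 1 and between 61.7% and 73.4% in replicate 2. By the mean of both libraries, 4444 genes (60.3%) had a share over 60% and up to 75%, 49 genes had 10% or less, and 269 had 95% or more. The distribution had a single broad centre and thinned out on both sides, with a small rise in the outermost 2-point bins.

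**Figure D1:**
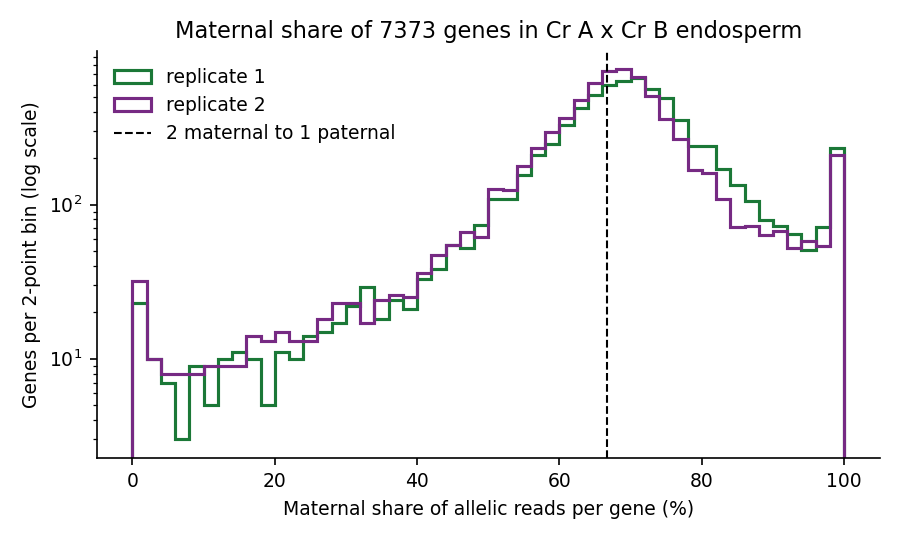
Distribution of the maternal share of allelic reads (x axis, %) over 7373 genes in the 2 Cr A x Cr B libraries, as genes per 2-point bin on a log axis; the dashed line marks 2 maternal to 1 paternal. Both libraries peak near their medians of 69.4% and 67.9% and rise again at 0% and 100%.

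The 2 libraries gave similar shares for most genes, and more closely so where reads were many. The median absolute difference between them was 4.78 percentage points over all 7373 genes. It was 7.90 points in the 2169 genes with under 100 reads in the shallower library, 4.51 points in 3680 genes with 100 to under 1000, and 3.06 points in 1524 genes with 1000 or more. A difference of more than 20 points was found in 436 genes (5.91%), of which 309 were in the shallowest of these depth classes and 13 in the deepest. Across genes, which are not independent replicates, Pearson's r between the libraries was 0.771. The offset between the libraries ran mostly one way: the share was higher in replicate 1 for 59.9% of genes, with a median difference of 1.53 points.

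**Figure D2:**
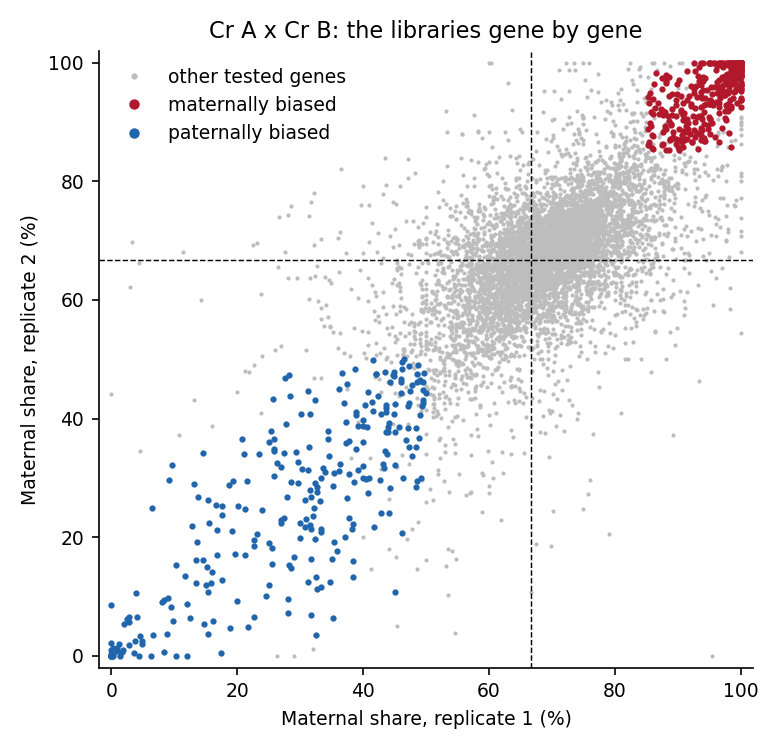
Maternal share (%) of each gene in replicate 1 (x axis) and replicate 2 (y axis) of Cr A x Cr B, with maternally biased genes in red, paternally biased genes in blue and other tested genes in grey; dashed lines mark 2 maternal to 1 paternal. The red genes sit in the upper right corner at 85% or more in both libraries, and the blue genes spread over the lower left at 50% or less.

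Departures from 2 to 1 beyond the spread between the libraries were found in 1202 genes, 16.3% of those tested (edgeR's quasi-likelihood test, Benjamini-Hochberg adjusted p under 0.05). More genes departed towards the maternal allele: 752 genes (10.2%) were more maternal than 2 to 1 and 450 (6.1%) less maternal. The median tested gene itself stood 0.13 above 2 to 1 on the log2 scale of the maternal to paternal ratio. Tested against each library's own median ratio, 670 genes were more maternal and 645 less maternal, so the excess on the maternal side was far smaller. The number of calls fell when 1 library was left out, in fits that also held both Cr B x Cr A libraries. With replicate 1 left out, 194 of the 8095 genes with enough reads in replicate 2 were more maternal and 172 less maternal. With replicate 2 left out, 304 of the 7705 genes with enough reads in replicate 1 were more maternal and 132 less maternal. A test of Cr B x Cr A alone, on 7385 genes, called 848 genes (11.5%) more maternal and 255 (3.45%) less maternal.

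Genes of strong bias were set apart by adding a bound on the share in each library. Maternally biased genes, with an adjusted p under 0.05 and at least 85% maternal reads in each library, numbered 413 (5.6% of those tested). Paternally biased genes, with an adjusted p under 0.05 and at most 50% maternal reads in each library, numbered 279 (3.78%). A further 52 and 62 genes met the bounds but did not pass the test. Without replicate 1, on 8095 genes, 194 maternally and 172 paternally biased genes were called, of which 176 and 132 were among the 413 and 279. Without replicate 2, on 7705 genes, 303 and 132 were called, of which 223 and 105 were among them. The classes made up a smaller share of well covered genes: 7.84% of genes with under 100 reads in the shallower library were maternally biased and 4.47% paternally biased, against 3.61% and 2.62% of genes with 1000 or more. The share of genes that departed from 2 to 1 at all ran the other way, at 8.07% more maternal and 4.56% less maternal in the shallowest depth class, against 13.6% and 8.79% in the deepest.

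The 2 classes differed in how near they came to a single allele, although their bounds are not alike. The median maternal share was 97.4% over the maternally biased genes, with the middle 50% between 92.2% and 99.7%. Of these 413 genes, 257 had a mean share of 95% or more, 143 had 99% or more, and 76 had no paternal read in either library. The median maternal share over the paternally biased genes was 28.8%, with the middle 50% between 17.1% and 38.9%. Of these 279 genes, 110 had a mean share above 33%, 49 had 10% or less, 35 had 5% or less, and 8 had no maternal read. Most paternally biased genes thus lay well above 0%. The genes that passed the test outside the bounds lay nearer the dosage, with a median of 80.4% for 339 genes on the maternal side and 52.0% for 171 genes on the paternal side.

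The share of reads in each class was below its share of the tested genes. Maternally biased genes, 5.6% of the genes, held 5.07% of the tested genes' reads in replicate 1 and 3.82% in replicate 2. Paternally biased genes, 3.78% of the genes, held 3.33% and 3.11%. Relative to all tested genes' reads, 39 of the 413 maternally biased genes (9.44%) had a level at least 4-fold higher in replicate 1 and 3 (0.726%) a level at least 4-fold higher in replicate 2. Over all tested genes these shares were 2.27% and 1.60%. Among the paternally biased genes, 11 were at least 4-fold higher in replicate 1 and 6 in replicate 2. A larger share of maternally biased genes than of all tested genes was thus unequal in level between the libraries, mostly with replicate 1 higher, and this difference was not tested.

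The 10 maternally biased genes with the highest lower confidence limit of the maternal share had shares of 99.7% to 100% in each library. The gene at scaffold 4, 6573366 to 6576696, minus strand, led them. It had 10472 maternal and 10 paternal reads in replicate 1 and 11873 and 4 in replicate 2 (exact 95% interval of the share over both libraries 99.90% to 99.97%, adjusted p = 0.000409). Its interval overlaps another listed gene, and the reads of the pair may not be separable.

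Next came the gene at scaffold 4, 14898408 to 14901076, minus strand, with 7682 maternal and 8 paternal reads in replicate 1 and 6166 and 4 in replicate 2. On scaffold 8, the gene at 5539043 to 5542464, minus strand, had 2803 maternal and 1 paternal read in replicate 1 and 1043 and 1 in replicate 2. In both genes paternal reads were single or few in either library. A further gene of scaffold 8, at 10153072 to 10153827, minus strand, was also the deepest of the class. It had 39654 maternal and 54 paternal reads in replicate 1 and 38632 and 89 in replicate 2. No rate of base errors was estimated, so paternal reads at shares this low are given only as counts. Also on scaffold 8, the gene at 2799618 to 2801036, plus strand, had 14285 maternal and 25 paternal reads in replicate 1 but 3184 and 10 in replicate 2.

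On scaffold 2, the gene at 725704 to 727162, minus strand, had no paternal read among 264 reads in replicate 1 and 963 in replicate 2, which leaves room for a paternal share of 0.244% or less. It passed edgeR's test at an adjusted p of 0.00167 and missed the threshold with DESeq2, at 0.0777. A gene with very unequal depth, at scaffold 4, 1174551 to 1176347, plus strand, had 2635 maternal and 3 paternal reads in replicate 1, but only 21 reads, all maternal, in replicate 2. Its adjusted p was 0.000519, and its log2 ratio relative to 2 to 1 was 6.88 without replicate 1 and 8.75 without replicate 2. The remaining genes of the 10, at scaffold 1, 8546456 to 8547503, at scaffold 4, 2674277 to 2675495, and at scaffold 4, 14607987 to 14609960, all on the minus strand, had between 0 and 5 paternal reads per library among 530 to 2543. Of these last genes, those on scaffold 4 had a single site each. Counting error alone enters these intervals and limits, which take every counted read as a separate molecule. A read that covers several sites is counted at each, so with close sites they are too narrow.

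The other 2 of the 3 deepest maternally biased genes had between 223 and 3711 paternal reads in each library. On scaffold 5, the gene at 6018196 to 6019641, minus strand, had 26258 maternal and 3229 paternal reads in replicate 1 (89.0%) and 38167 and 3711 in replicate 2 (91.1%). Its log2 ratio lay 2.19 above 2 to 1 (SE 0.14, adjusted p = 0.00118), and its 5 sites stood between 85.3% and 93.3%. Another deep gene, at scaffold 2, 1047690 to 1050750, minus strand, had 22700 maternal and 223 paternal reads in replicate 1 (99.03%) and 14906 and 292 in replicate 2 (98.1%). In this gene the sites fell into distinct stretches. The 5 sites at 515 to 746 bp from the 5′ end of the interval had 1794 to 10293 reads each over both libraries and were 99.8% to 99.95% maternal. The other 14 sites, from 1203 to 2842 bp, had 58 to 260 reads each and were 63.8% to 82.9% maternal. The maternal share of the summed gene was thus set by a short, deeply read stretch, and the rest of the interval lay nearer the dosage of the tissue.

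**Figure D3:**
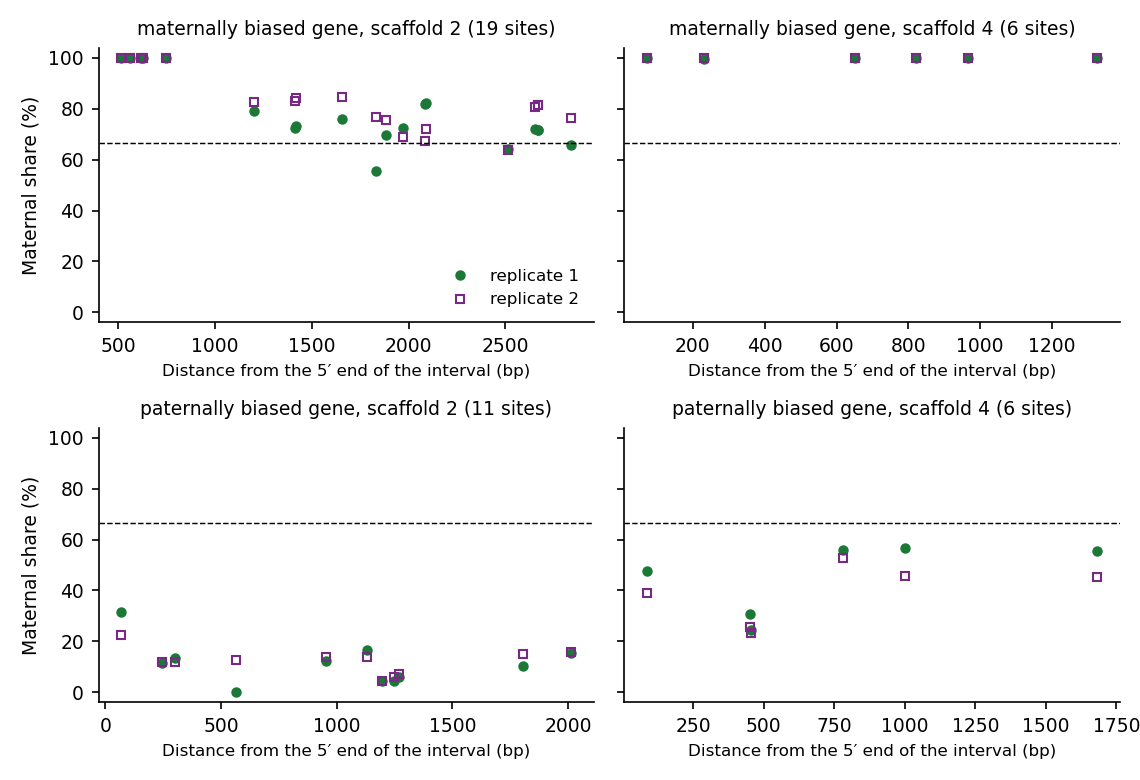
Maternal share (%) of every site with at least 20 reads over both libraries, by distance from the 5′ end of the gene interval (bp), in 4 called genes of Cr A x Cr B; circles are replicate 1, squares replicate 2, and the dashed line is 2 maternal to 1 paternal. Over both libraries, 5 sites of the upper left gene are at least 99.8% maternal and 14 lie between 63.8% and 82.9%, while the 6 sites of the upper right gene all exceed 99.8%.

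The 10 paternally biased genes with the lowest upper confidence limit had maternal shares of 0% to 1.74% in each library. First among them, the gene at scaffold 3, 8755887 to 8756364, minus strand, had 2 maternal and 714 paternal reads in replicate 1 and 1 and 3011 in replicate 2 (exact 95% interval 0.0166% to 0.235%, adjusted p = 0.000519). It was followed by the gene at scaffold 2, 3019241 to 3022175, plus strand, with 2 maternal and 710 paternal reads in replicate 1 and 7 and 2230 in replicate 2. All 13 of its sites with at least 20 reads were at 0.875% maternal or less. These genes were read almost wholly from the paternal allele, which is the single copy in this tissue.

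On scaffold 4, the gene at 1940495 to 1941686, plus strand, had no maternal read among 193 in replicate 1 and 1 among 540 in replicate 2. On scaffold 1, the gene at 13871947 to 13873536, plus strand, had none among 106 and 301 reads, which leaves room for a maternal share of 0.737% or less. On scaffold 2, that at 11369480 to 11373367, plus strand, had none among 31 and 170, which leaves room for 1.49% or less. Both of the genes without a maternal read passed edgeR's test, at adjusted p of 0.00194 and 0.00466, and missed the threshold with DESeq2, at 0.0612 and 0.113. The other 5 genes were at scaffold 7, 9381246 to 9384508, at scaffold 6, 3526507 to 3529947, and at scaffold 4, 2971089 to 2973693, on the minus strand, and at scaffold 5, 6933190 to 6934256, and scaffold 6, 15188003 to 15192831, on the plus strand. They had 0 to 8 maternal reads per library among 115 to 1024. The genes at scaffold 1, 13871947, and at scaffold 6, 3526507, had a single site each.

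**Figure D4:**
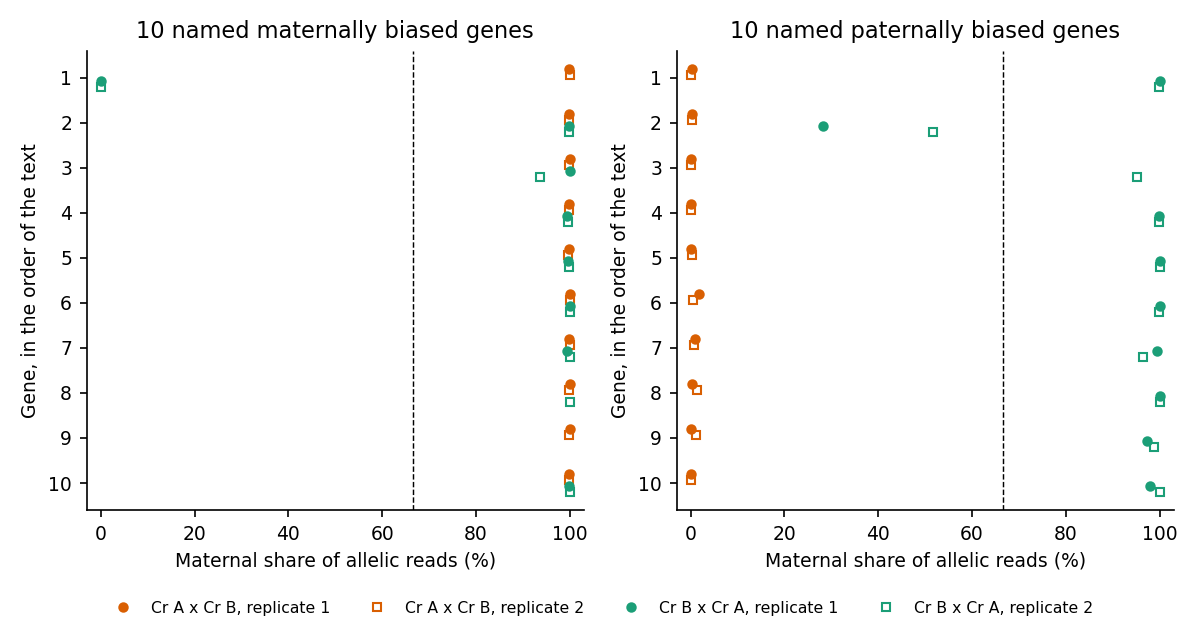
Maternal share (%) of the 10 named maternally biased genes (left) and the 10 named paternally biased genes (right) in each library of Cr A x Cr B (orange) and Cr B x Cr A (green), drawn only where a library had at least 20 reads; the dashed line is 2 maternal to 1 paternal. The orange points lie at 99.7% or more on the left and at 1.74% or less on the right, while the green points lie at 93.8% or more for all but 1 gene on each side.

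The 3 deepest paternally biased genes had between 621 and 8160 maternal reads per library, and they differed in how close the libraries lay. The most deeply read of them, at scaffold 2, 7693692 to 7697039, plus strand, had 4058 maternal and 41143 paternal reads in replicate 1 and 4677 and 43306 in replicate 2, a mean maternal share of 9.36% ± 0.544 (SD, n = 2). Its log2 ratio was -4.28 relative to 2 to 1 (SE 0.12, adjusted p = 0.000409), and its sites ranged between 4.37% and 24.8%. Second in depth was the gene at scaffold 1, 11452090 to 11454311, plus strand, with 621 maternal and 14462 paternal reads in replicate 1 and 1720 and 24470 in replicate 2, a mean of 5.34% ± 1.73 (SD, n = 2; log2 ratio -5.18, SE 0.23, adjusted p = 0.000528). Less deep again, the gene at scaffold 4, 9122199 to 9124188, plus strand, lay just inside the bound. It had 8160 maternal and 8670 paternal reads in replicate 1 (48.5%) and 6411 and 10295 in replicate 2 (38.4%). Its sites spread between 23.8% and 54.4%. Its log2 ratio was -1.39 relative to 2 to 1 (adjusted p = 0.00904), -1.68 without replicate 1 and -1.09 without replicate 2.

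Sites within a called gene mostly met the bound of its class. Their reads are also those summed for the call, so much of this follows from the choice of genes. Of the 282 maternally biased genes with at least 2 sites of 20 or more reads over both libraries, 218 (77.3%) had every such site at 85% or more, and 1252 of their 1382 sites (90.6%) met that bound. Of the 212 paternally biased genes with such sites, 134 (63.2%) had every site at 50% or less, and 999 of 1174 sites (85.1%) met the bound. The median range between sites of a gene was 3.35 points in the maternally and 22.3 points in the paternally biased genes. Genes at 85% or more have less room for a range than genes at 50% or less, so these ranges do not compare the classes. Over genes with both, sites outside listed exons had medians near those of exon sites. These were 95.9% against 96.5% in 38 maternally biased genes, and 25.0% against 28.7% in 31 paternally biased genes. With the sites outside exons summed per gene, 30 of the 38 and 26 of the 31 met the bound of their class. A read that covers several sites is counted at each, so neighbouring sites share molecules. A single listed site carried 88 of the 413 maternally and 42 of the 279 paternally biased genes, against 1794 of all 7373 tested genes. Fewer than 2 sites of 20 or more reads were present in 131 and 67 of the called genes.

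The Cr B x Cr A libraries, which played no part in the calls, split the maternally biased genes into groups. Of the 413 genes, 348 had at least 20 reads in each library of both crosses. Of these, 183 (52.6%) were also at 85% or more in both Cr B x Cr A libraries, where 6.25% of the 6990 genes read in both crosses were. A further 77 (22.1%) were at 50% or less in both, where 3.06% of all such genes were, and 88 (25.3%) met neither bound. On the reading of the names above, these 77 genes were read at 50% or more from the Cr A allele in all 4 libraries, with Cr A as either parent. The median share of the 348 genes was 97.0% and 96.2% in the Cr A x Cr B libraries and 91.5% and 93.3% in the Cr B x Cr A libraries.

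Of the paternally biased genes, more stood at 85% or more in the reverse cross than at 50% or less. Of the 279 genes, 259 had enough reads in both crosses, and 47 of these (18.1%) were at 50% or less in both Cr B x Cr A libraries. The larger number, 98 genes (37.8%), were at 85% or more in both, and 114 (44.0%) met neither bound. Their median share was 31.7% and 29.0% in the Cr A x Cr B libraries and 82.6% and 84.4% in the Cr B x Cr A libraries. The ends of each class were also counted separately. Of the 100 maternally biased genes at 99% or more that were read in both crosses, 81 were at 85% or more in Cr B x Cr A and 13 at 50% or less. Of the 42 paternally biased genes at 10% or less, 11 were at 50% or less in Cr B x Cr A and 26 at 85% or more. Of the 108 with a share over 33%, 7 (6.48%) were at 50% or less, 24 (22.2%) at 85% or more, and 77 met neither bound. Over all 6990 genes read in both crosses, 3.06% were at 50% or less and 6.25% at 85% or more in both Cr B x Cr A libraries.

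**Figure D5:**
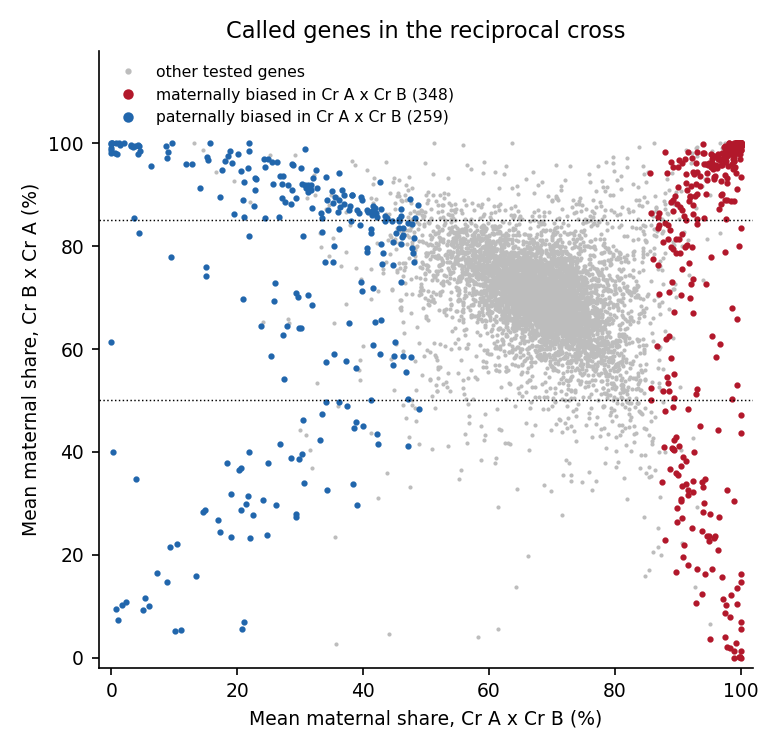
Mean maternal share (%) of each gene in Cr A x Cr B (x axis) and Cr B x Cr A (y axis), for genes with at least 20 reads in all 4 libraries; red and blue are the 348 maternally and 259 paternally biased genes of Cr A x Cr B, grey the other tested genes, and dotted lines mark 85% and 50%. Red genes form a cluster at the upper right and a tail down the right edge, and blue genes lie mainly along the upper left, with a smaller band at the lower left.

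The difference between the crosses was then tested gene by gene, as the change of the maternal to paternal ratio with the direction of the cross. It passed an adjusted p under 0.05 in 1227 of 6990 genes (17.6%). The ratio was higher in Cr A x Cr B for 427 (6.11%) and lower for 800 (11.4%). Centred on each library's own median ratio, the counts were 584 higher and 721 lower. Without replicate 1 of Cr A x Cr B they were 207 higher and 429 lower, without its replicate 2 they were 192 and 267, and without replicate 2 of the reverse cross 369 and 490. Within the 348 maternally biased genes the ratio was higher in Cr A x Cr B for 110 and lower for 5. Among the 259 paternally biased genes it was lower for 185 and higher for none past this threshold. Each class was itself chosen on its shares in the libraries of this cross, which favours these directions, so the counts are a description.

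Of the 10 named maternally biased genes, 8 were read in both crosses, and 7 of these were at 85% or more in both Cr B x Cr A libraries. The exception was the leading gene, at scaffold 4, 6573366 to 6576696. The reverse cross gave it 1 maternal and 2865 paternal reads in replicate 1 and 2 and 4493 in replicate 2, so its share was 99.9% and 99.97% in the Cr A x Cr B libraries against 0.0349% and 0.0445% in the Cr B x Cr A libraries (adjusted p of the difference 7.92e-05). By contrast, the gene at scaffold 8, 10153072 to 10153827, had 99.9% and 99.8% in Cr A x Cr B against 99.5% and 99.7% in Cr B x Cr A (adjusted p of the difference 0.0743). The gene with 21 reads in replicate 2, at scaffold 4, 1174551 to 1176347, was uneven in the reverse cross too, with 1410 reads in replicate 1 and 47 in replicate 2, at 99.5% and 100% maternal.

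Of the 10 named paternally biased genes, 9 were read in both crosses, all 9 differed between the crosses, and 8 were at 85% or more maternal in both Cr B x Cr A libraries. For the gene at scaffold 3, 8755887 to 8756364, the maternal shares were 0.279% and 0.0332% in the Cr A x Cr B libraries against 100% and 99.9% in the Cr B x Cr A libraries. On scaffold 7, the gene at 9381246 to 9384508 had 0% and 0.311% in Cr A x Cr B against 100% in each library of Cr B x Cr A, where 296 and 847 reads were maternal and none paternal. On the reading of the names as female x male, 8 of these 9 genes were read almost wholly from the Cr B allele, whichever parent carried it. The ninth gene, at scaffold 2, 3019241 to 3022175, had 0.281% and 0.313% in Cr A x Cr B against 28.2% and 51.6% in Cr B x Cr A (adjusted p of the difference 0.00138), where it had 71 and 742 reads.

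Among the deep paternally biased genes, some were at 50% or less in both crosses. At scaffold 2, 7693692 to 7697039, the gene had 8.98% and 9.75% maternal reads in Cr A x Cr B against 14.8% and 28.3% in Cr B x Cr A, and the difference missed the threshold (log2 difference -1.34, SE 0.39, adjusted p = 0.0645). At scaffold 1, 11452090 to 11454311, it was 4.12% and 6.57% in Cr A x Cr B against 8.74% and 14.6% in Cr B x Cr A (log2 difference -1.22, SE 0.37, adjusted p = 0.0718). In both genes the 2 Cr A x Cr B libraries were lower than either Cr B x Cr A library. In contrast, the gene at scaffold 4, 9122199 to 9124188, had 48.5% and 38.4% in Cr A x Cr B against 83.9% and 87.9% in Cr B x Cr A (log2 difference -3.01, SE 0.29, adjusted p = 0.00268).

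The largest differences between the crosses, among genes past that test with at least 50 reads in each of the 4 libraries, were near-complete exchanges. The genes were chosen for this difference, so their values are a description. One of them, at scaffold 6, 13804520 to 13806933, plus strand, had 283 and 166 reads in Cr A x Cr B, all maternal, and 284 and 158 in Cr B x Cr A, all paternal. Another, at scaffold 7, 7107511 to 7109504, plus strand, had 950 and 1241 maternal against 0 and 3 paternal reads in Cr A x Cr B, but 0 and 2 maternal against 520 and 576 paternal reads in Cr B x Cr A. The genes at scaffold 3, 704296 to 706546, and at scaffold 7, 17188269 to 17189022, both on the plus strand, were 99.7% to 100% maternal in Cr A x Cr B and at most 7.61% in Cr B x Cr A. In the gene at scaffold 7, 17188269, 1 site held 804 of the 810 reads of Cr A x Cr B. Its other site had 4 maternal and 0 paternal reads in replicate 2 of Cr B x Cr A. In the opposite direction, the gene at scaffold 1, 10536735 to 10538351, minus strand, had 78 and 90 reads in Cr A x Cr B, all paternal, and 190 and 343 in Cr B x Cr A, all maternal. The gene at scaffold 4, 8707631 to 8707996, minus strand, had 3.55% and 0.517% maternal reads in Cr A x Cr B against 100% in each Cr B x Cr A library.

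Called genes lay on all of the 8 largest scaffolds. The share of maternally biased genes was lowest on scaffold 5 (4.03%) and highest on scaffold 2 (6.79%), and that of paternally biased genes lowest on scaffold 1 (2.24%) and highest on scaffold 2 (5.26%). Intervals that overlap another listed gene held 453 of the 7373 genes, 14 of the maternally and 16 of the paternally biased ones. The library kit does not mark strand, so reads from overlapping genes cannot be told apart there. The authors' deposited table gives its own p-value per gene and replicate, without a replicate spread. It rests on the same libraries as the calls here, so the overlap between them is not independent evidence. Of the 413 maternally biased genes, 412 also had a p under 0.05 on the maternal side in both replicates of the authors' deposited table, where 1578 genes (21.4%) had, and of the 279 paternally biased genes 277 had one on the paternal side, where 973 (13.2%) had.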

How the data were processed

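RNA of 2 endosperm libraries per cross was measured. Per the submitters' processing notes, Trimmomatic, Bowtie 1.0 and TopHat were used, and the genome build and allele caller are not given in the sources used here. Per the file headers, the authors deposited maternal and paternal read counts per site with gene and exon intervals, a p-value per gene and, as a fraction, the maternal ratio. Table columns were tied to libraries by site: counts equalled those of the own library at 99.89% of sites or more and of another at 5.15% or fewer. The 2 counts were summed over the sites of each interval, and the share is maternal reads over both. Genes needed 20 allelic reads in each library.

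edgeR 4.0.16 (R 4.3.3) tested the maternal and paternal columns of both libraries against an offset of 2 to 1 with library terms, which left 1 residual degree of freedom, so the spread rests largely on values shared across genes. A fit of all 4 libraries tested the change of the ratio with the cross. P-values were Benjamini-Hochberg adjusted over all genes tested (threshold 0.05), and DESeq2 1.42.0, an exact binomial test, other filters, nulls and site choices were alternatives. Leave-one-out fits assume that the lone library varies like the others. Those without 1 Cr A x Cr B library also held both Cr B x Cr A libraries, which gave all of their spread between libraries. Intervals are Clopper-Pearson (95%), limits of a share of 0 use 3 reads, and both cover counting error only. Both take every read counted at a site as a separate molecule, so they are too narrow where reads cover several sites. Named genes were the 10 per class with the most extreme confidence limit, the 3 deepest per class, and the 5 per direction with the largest difference between crosses. Genes, lists and tests were chosen with earlier results of these data known. Lists of named imprinted, endosperm, embryo and seed coat genes could not be matched to the intervals and have no result. The test was checked on simulated data.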

Additional observations from a re-analysis of the deposited data

Results flagged for a closer look

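The maternal to paternal ratio differed between the crosses by the test of the difference itself: 427 genes were higher in Cr A x Cr B and 800 were lower. Among the named genes, the mean maternal share in Cr A x Cr B minus that in Cr B x Cr A was 99.9 points at scaffold 4, 6573366, 100 points at scaffold 6, 13804520, 99.7 at scaffold 7, 7107511, 99.6 at scaffold 3, 704296, and 94.5 at scaffold 7, 17188269. In the opposite direction it was -99.8 points at scaffold 3, 8755887, -99.9 at scaffold 1, 13871947, -99.8 at scaffold 7, 9381246, -98.8 at scaffold 6, 3526507, -97.1 at scaffold 4, 2971089, and -99.2 at scaffold 5, 6933190. It was also -97.5 points at scaffold 6, 15188003, -99.0 at scaffold 2, 11369480, -100 at scaffold 1, 10536735, and -98.0 at scaffold 4, 8707631. Smaller differences past the test were -39.6 points at scaffold 2, 3019241, -42.5 at scaffold 4, 9122199, and 2.63 at scaffold 2, 1047690, where the adjusted p was 0.0376. The sites of this last gene fell into distinct stretches, as given above, so its summed difference depends on how reads divided between them. Each of the genes listed here passed the test of the difference between the crosses, which is why it is given. With 2 directions of 1 pair of accessions, the parent and the accession of the allele were compared only through this difference.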

How the results depend on the processing

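An exact binomial test on the summed reads, which holds no spread between libraries, called 2792 genes more and 1792 less maternal than 2 to 1. With 1 site per gene, the one with most reads, 249 genes were less maternal. Leaving out 1 library of Cr A x Cr B gave 194 to 304 genes more maternal, 132 to 172 less maternal, 194 to 303 maternally biased and 132 to 172 paternally biased, with medians of 67.9% to 69.6%. Leaving out 1 of the 4 libraries gave 192 to 369 genes with a higher and 267 to 689 with a lower ratio in Cr A x Cr B. The cause of these changes was not tested. DESeq2, a minimum of 50 reads, exon sites only and a null at the library median kept the counts called in Cr A x Cr B and those of the difference between crosses within 1.5 times their value. A single fit of 4 libraries and no read filter did so for the counts called in Cr A x Cr B. The difference between crosses comes from a fit of 4 libraries already and was not run without a read filter. The replicate numbers do not pair the libraries in the labels (correlation of same-numbered deviations over genes 0.053 for the ratio and 0.513 for total allelic reads), and with a replicate block 436 genes were higher and 797 lower. Of 247 values of 25 named called genes under the alternatives, 242 kept their call, 5 fell short of the threshold and 0 changed direction. The 25 genes were chosen as the most extreme or the deepest of their classes, so these values do not speak for the whole classes. Genes with under 100 reads per library carry the widest counting error.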

Other observations

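Called genes stood next to each other in a few places, where neighbours are consecutive tested genes of 1 scaffold. These runs were picked after the shares were seen and have no test. The longest held 5 maternally biased genes at scaffold 5, 6007078 to 6031008, with mean shares of 90.1% to 99.9% in Cr A x Cr B and 88.3% to 98.2% in Cr B x Cr A. It contains the deeply read gene at 6018196 to 6019641. A run of 3 genes at scaffold 6, 629524 to 638182, had maternal shares of 98.9% to 100% in Cr A x Cr B against 1.37% to 30.5% in Cr B x Cr A, and the intervals of its last 2 genes overlap on opposite strands. The single run of 3 paternally biased genes, at scaffold 8, 5409931 to 5433329, had 4.26% to 42.2% in Cr A x Cr B against 85.6% to 97.9% in Cr B x Cr A.

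The libraries of Cr A x Cr B placed 5 genes on opposite sides, at 85% or more in 1 library and 50% or less in the other, and none of the 5 had 100 reads in both. The widest gap was at scaffold 5, 832838 to 834399, where 381 of 399 reads were maternal in replicate 1 and 0 of 21 in replicate 2. In the reverse cross, replicate 1 gave that gene 466 maternal of 480 reads, and replicate 2 gave it no allelic read.

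The most covered gene of Cr A x Cr B, at scaffold 4, 5993733 to 5995220, had 230389 reads in replicate 1 and 27380 in replicate 2, at 69.4% and 59.4% maternal, and did not differ from 2 to 1 beyond the spread (adjusted p = 0.637). In Cr B x Cr A it had 143291 and 10272 reads, at 57.2% and 84.6%. The next 3 genes by reads had mean maternal shares of 57.6% to 59.3% in Cr A x Cr B against 77.9% to 79.0% in Cr B x Cr A, and each passed the test of the difference between the crosses.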
